A study of Mus musculus with 3 samples.

Results

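The genes described are 10 zinc finger genes of a cluster on mouse chromosome 4: Zfp600, Zfp980, Zfp981, Zfp982, Zfp985, Zfp987, Zfp988, Zfp989, Zfp990 and Zfp993. They were chosen by name, with their levels in these cultures already known, so their levels and ratios are given as a description without a test. All 10 were listed in the tables of mouse embryonic stem cells (mESC) and cardiac precursor cell cultures (CPCC), and 9 in that of cardiac bodies (CB), where Zfp989 was not listed. The tables hold 22439, 23371 and 24229 genes, and 27886 different genes in all.

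The cells of all groups were male and descended from embryonic stem cells of a cross between a C57BL/6J mother (C57BL/6 in the labels) and a CAST/EiJ father, derived on a feeder layer as clones from several blastocysts. The mESC were kept in 2i medium, which holds stem cells in a naive state. CPCC were made from the mESC by way of embryoid bodies and were then passaged with the growth factors EGF and Fgf2, and CB were beating bodies grown from cell aggregates in medium with ascorbic acid. Single cells were captured on microfluidic chips and their polyadenylated RNA was sequenced along their length, which gave 215 mESC, 175 CPCC and 232 CB cells. The labels give 1 sample for each group. The mESC sample is titled a triplicate and the study's methods name 3 clones, but no label ties a cell to a clone, so differences between cultures have no replicate check here, cells were not used as replicates, and no p-value is given.

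The median mESC cell held 1528316 counts, the median CPCC cell 1437414 and the median CB cell 1397869, and 12, 6 and 13 cells held under 100000 counts. The column names divide the cells into pools, 3 in mESC (90, 77 and 48 cells), 2 in CPCC (79 and 96 cells) and 3 in CB (69, 78 and 85 cells). Which clone or culture a pool holds is not stated, so pools show the spread within a culture and are not replicates. The pools of CPCC differed in make-up. The 10 pluripotent markers summed to 5575 CPM (counts per 1000000 counts) in pool 1 and 1212 CPM in pool 2, the 8 fibroblast markers to 104 and 921 CPM, the 4 smooth muscle markers to 3825 and 7059 CPM, and the 5 macrophage markers to 0.0899 and 3402 CPM. The pools of CB differed as well. In CB pools 1, 2 and 3 the fibroblast markers summed to 14000, 430 and 14639 CPM and 8 cardiomyocyte markers to 205, 833 and 17.5 CPM. There, 4 endothelial markers summed to 41.2, 564 and 9.84 CPM and 4 endoderm markers to 29.6, 854 and 2.09 CPM. Of 6 markers of the labelled cardiac precursors, Mef2c was found in 23.4% of the CPCC cells (3.80% of pool 1 and 39.6% of pool 2), Gata4 in 10.3%, Hand2 in 5.71%, Nkx2-5 in 5.14% and Isl1 in 4.57%, and Tbx5 was not listed.

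Genes of this kind encode proteins with an array of zinc fingers, each of which contacts a few bases of DNA, and many of them carry a KRAB domain. This domain recruits the co-repressor Trim28, which brings in the histone methyltransferase Setdb1 and proteins of heterochromatin. In embryonic stem cells and early embryos the system is best known for silencing transposable elements, and the genes commonly lie in clusters of similar copies.

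All 10 genes are annotated as protein coding and lie on the plus strand of chromosome 4, spread over 2074440 bases of GRCm38 (chr4:145510759-147585198). From the centromeric end the order is Zfp990, Zfp980, Zfp987, Zfp600, Zfp981, Zfp993, Zfp989, Zfp988, Zfp982 and Zfp985, with gaps of 30202 to 392856 bases between neighbouring members. The longest coding transcript holds 3 exons in Zfp982 and 6 in Zfp985 and Zfp993, and its coding part runs from 940 bases in Zfp993 to 2211 bases in Zfp600.

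The RefSeq promoter table (GRCm38.p6), which gives 250 bases before to 50 after a start site, held 8 of the 10 genes. In 7 of these 8 the promoters shared a pair of sequence words. The windows around both words are shown for 4 genes because 7 members share these words, though not they alone: among these Zfp988 had the highest level, Zfp600 and Zfp982 were among the closest pairs, and Zfp981 was the least similar. All are on the plus strand, lie upstream of the RefSeq start and overlap no annotated exon of their gene, at chr4:147305486-147305603 for Zfp988, chr4:146156688-146156805 for Zfp600, chr4:147492262-147492379 for Zfp982 and chr4:146514752-146514869 for Zfp981. The window of Zfp981 lies inside the gene as GENCODE draws it, since the RefSeq start is 12893 bases from the GENCODE start. The capitals mark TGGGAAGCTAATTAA, the longest word that the 7 promoters had in common, and TATTGGGCG, the longest one that holds the complement of CCAAT.
Zfp988: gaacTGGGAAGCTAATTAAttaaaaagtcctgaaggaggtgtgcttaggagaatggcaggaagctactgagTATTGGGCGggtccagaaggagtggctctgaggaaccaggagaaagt
Zfp600: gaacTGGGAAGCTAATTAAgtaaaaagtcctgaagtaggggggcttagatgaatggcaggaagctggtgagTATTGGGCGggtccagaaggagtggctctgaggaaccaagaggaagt
Zfp982: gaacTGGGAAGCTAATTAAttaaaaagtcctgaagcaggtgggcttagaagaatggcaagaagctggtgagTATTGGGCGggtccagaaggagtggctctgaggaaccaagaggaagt
Zfp981: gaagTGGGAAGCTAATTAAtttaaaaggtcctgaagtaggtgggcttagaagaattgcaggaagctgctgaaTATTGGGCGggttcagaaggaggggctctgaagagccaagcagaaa

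Over the 21 pairs of the 7 windows, from 83.3% to 95.8% of the aligned positions were identical, with a median of 92.4%. Each window was 118 bases long, with 52 bases between the words in 6 genes and 53 in Zfp981. The words overlap neither each other nor a start site and were chosen after the sequences had been seen, and both strands of all 32851 promoters in the table were searched. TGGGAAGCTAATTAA was found in 12 promoters (0.0365%), all on chromosome 4: the 7 members and Gm13212, Rex2, Zfp979, Zfp534 and Zfp984. TATTGGGCG was found in 39 (0.119%), of which 13 lay on chromosome 4. The same 12 promoters held both words. CCAAT itself was in 37.4% of all promoters. The RefSeq start of Zfp993 lies 98112 bases from its GENCODE start and its promoter row held neither of the longer words. No promoter was listed for Zfp989 and Zfp990. A match describes the letters only.

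In mESC every one of the 10 genes was expressed in most cells. Summed over the cells, the level ran from 9.51 CPM for Zfp993 to 191 CPM for Zfp988, and the 10 genes together made up 993 CPM. Zfp988 stood at 167, 218 and 180 CPM in the 3 mESC pools, Zfp990 at 144, 182 and 176 CPM, Zfp600 at 73.7, 116 and 73.8 CPM, and Zfp982 at 19.1, 39.8 and 23.6 CPM. Pool 2 was the highest for each of these 4 genes, whereas Zfp993, with 3.90, 11.6 and 12.7 CPM, was highest in pool 3 and far lower in pool 1. From 75.3% of the cells (Zfp993) to 95.3% (Zfp980 and Zfp990) held 1 or more counts of a member. The 95% interval of the share was 69.0% to 81.0% for Zfp993 and 91.6% to 97.7% for Zfp990. These exact binomial intervals, and the Poisson intervals of the levels, cover counting error only, since these reads carry no molecular identifiers and 1 molecule can give many of them.

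To compare genes with each other, levels were divided by the length of all exons of a gene. On this scale, CPM per kilobase, Zfp988 led in mESC with 68.2, followed by Zfp990 (48.1), Zfp987 (43.4), Zfp980 (37.5), Zfp981 (32.8), Zfp985 (29.8), Zfp982 (19.2), Zfp600 (18.3), Zfp989 (14.1) and Zfp993 (7.46). The pools of Zfp988 lay above those of Zfp990, and the pools of Zfp989 above those of Zfp993. All other neighbours in this order overlapped between pools. In CPCC Zfp988 again headed the list with 35.2 CPM per kilobase and Zfp993 closed it with 1.99, and only the step from Zfp982 (6.23) to Zfp993 lay outside the spread of the pools.

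In CPCC the level of the genes differed widely between the pools. The sum of the 10 genes was 841 CPM in pool 1 and 96.5 CPM in pool 2, beside 889 to 1128 CPM in the mESC pools. From pool 1 to pool 2 the level went from 82.8 to 3.23 CPM for Zfp600, from 140 to 7.66 CPM for Zfp980, from 176 to 26.2 CPM for Zfp988 and from 80.8 to 16.3 CPM for Zfp990. For the members the ratio of pool 1 to pool 2, with 1 CPM added to both, ran from 1.12 for Zfp993 to 19.8 for Zfp600 with a median of 7.61, beside a median of 1.01 over all 23371 genes. Zfp993 (2.74 and 2.35 CPM) was the member with nearly equal levels in both pools.

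Set against the range of the 3 mESC pools, CPCC pool 2 lay below it for 10 of 10 genes, beside 39.0% of all 20272 genes listed in both tables. CPCC pool 1 lay within it for Zfp600, Zfp980, Zfp981, Zfp987 and Zfp988, below it for Zfp982, Zfp985, Zfp990 and Zfp993, and above it for Zfp989, beside 41.5%, 28.0% and 30.5% of all genes. The CPCC table holds whole counts and the mESC table estimated counts, and the members differ in how much sequence they share with other genes, as given below. Of the 4 members below the range, Zfp982, Zfp985 and Zfp990 share the least sequence with other genes and Zfp993 shares the most, and Zfp981, which also shares little, lay within the range. The part of the counting method in this pattern was not tested.

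**Figure D1:**
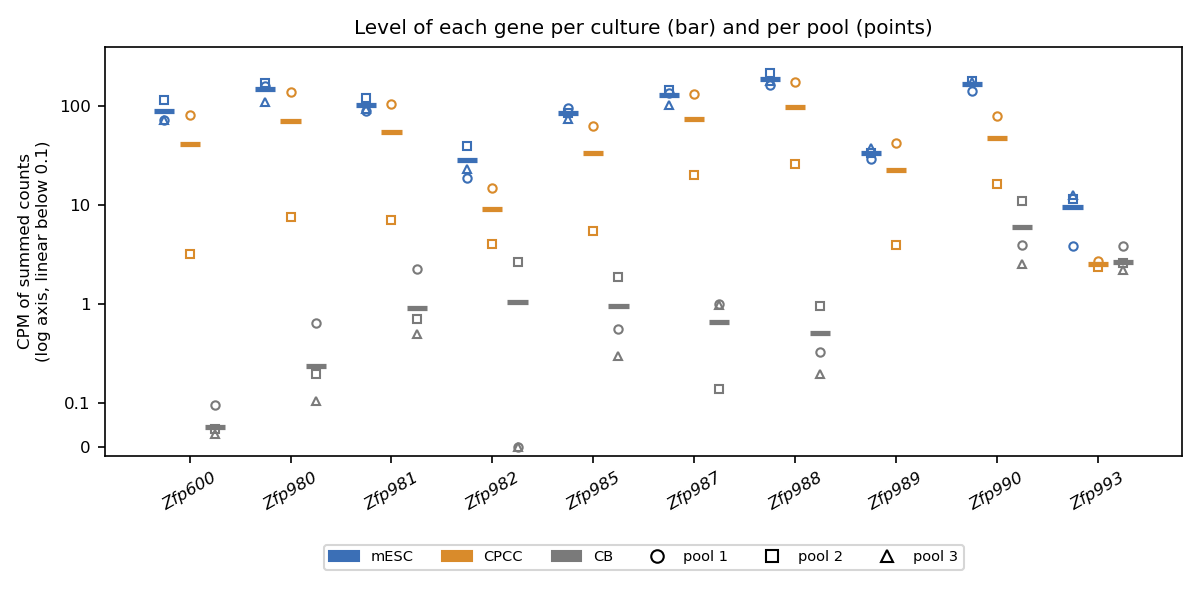
Level of the 10 genes in CPM of summed counts, on a logarithmic axis that is linear below 0.1 CPM. Bars give the culture (mESC blue, CPCC orange, CB grey) and open symbols its pools; the mESC points of 8 genes lie close together and those of Zfp982 and Zfp993 farther apart, the CPCC points of 9 genes lie far apart, with pool 1 nearer to the mESC level, and the CB bars of 7 of the 9 genes listed there stay below 2 CPM.

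In CB most of these genes were close to absent. The 9 listed genes together made up 13.1 CPM, and 6.08 CPM of this came from Zfp990 and 2.67 CPM from Zfp993. Zfp600 had 0.0463 CPM (95% Poisson interval 0.0270 to 0.0768), Zfp980 0.239 CPM, Zfp988 0.515 CPM and Zfp987 0.660 CPM. Zfp600 was found in 3 of 232 cells (1.29%), Zfp980 and Zfp982 in 4 cells each (1.72%), and Zfp990 in 31 cells (13.4%). The cells with Zfp990 were unevenly spread, with 29.5% of the cells of pool 2 beside 7.25% and 3.53% in pools 1 and 3. All of Zfp982 came from pool 2, at 2.68 CPM beside 0 in the other pools, and 54.2% of its counts came from a single cell. CB pool 2 also differed from pools 1 and 3 in its sums of fibroblast, cardiomyocyte, endothelial and endoderm markers, given above. A link between these sums and the 2 genes was not tested. When the cell with most counts of each gene was left out, the median level of the members in CB dropped from 0.913 to 0.482 CPM.

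The ratio between cultures was taken as the log2 of (CPM + 1) in the first over (CPM + 1) in the second, for genes listed in both tables. For CB against mESC it ran from -6.98 for Zfp988 to -1.52 for Zfp993, with a median of -5.78 over the 9 listed genes and of 0.13 over all 19855 genes. All 9 were more than 2-fold lower, beside 11.3% of all genes, and 8 of them were lower in every CB pool than in every mESC pool, beside 18.1%. The exception was Zfp993. For CB against CPCC the members had a median of -4.87, beside 0.14 over all 20995 genes, 8 of 9 were more than 2-fold lower, beside 7.54%, and 8 were lower in every pool, beside 10.1%. With 1 pool left out, the median for CB against CPCC ran from -5.80 to -2.02. Zfp993 was level in this pair, at 2.67 and 2.54 CPM (log2 ratio 0.05, and -0.08 with TMM and -0.09 with DESeq2 scaling). For CPCC against mESC the median was -1.08, beside -0.02 over all genes, from -1.80 (Zfp990) to -0.56 (Zfp989), 6 of 10 were more than 2-fold lower, beside 6.38%, and 4 were lower in every pool, beside 19.4%. These values depended on the pools: 10 of 10 were more than 2-fold lower without CPCC pool 1, 2 without CPCC pool 2 and 4 without mESC pool 2, and the median was -3.05 without pool 1 and -0.12 without pool 2, and without pool 2 the ratios of Zfp981, Zfp987 and Zfp989 were 0.03, 0.01 and 0.32. No member was more than 2-fold higher in any of these comparisons, beside 24.9%, 17.0% and 13.4% of all genes in the order given here. Since the genes were chosen with these ratios known, nothing is read from the counts past 2-fold. A lower sum over cells can come from fewer cells with the gene or less RNA per cell. Detection in a cell depends on both, so the counts per cell below do not separate them.

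Counted cell by cell, most CPCC cells held either nearly all of the genes or few of them. A gene was taken as detected at 1 or more counts. In mESC the median cell held all 10 genes, 138 of 215 cells held 10 and 194 held 8 or more. The 10 mESC cells with 2 or fewer had a median of 1683 counts in all, and 8 of them were under 100000 counts. In CPCC 79 of 175 cells (45.1%) held 8 or more genes, 35 held 3 to 7, and 61 (34.9%) held 2 or fewer, of which 28 held none. These classes had similar depth, with medians of 1448040, 1499264 and 1221800 counts per cell. Pool 1 gave 63 of its 79 cells to the class with 8 or more, and pool 2 gave 16 of its 96, with 25 in the class of 3 to 7 and 55 in that of 2 or fewer. In CB 136 of 232 cells (58.6%) held none, 82 held 1 or 2, and no cell held more than 5.

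**Figure D2:**
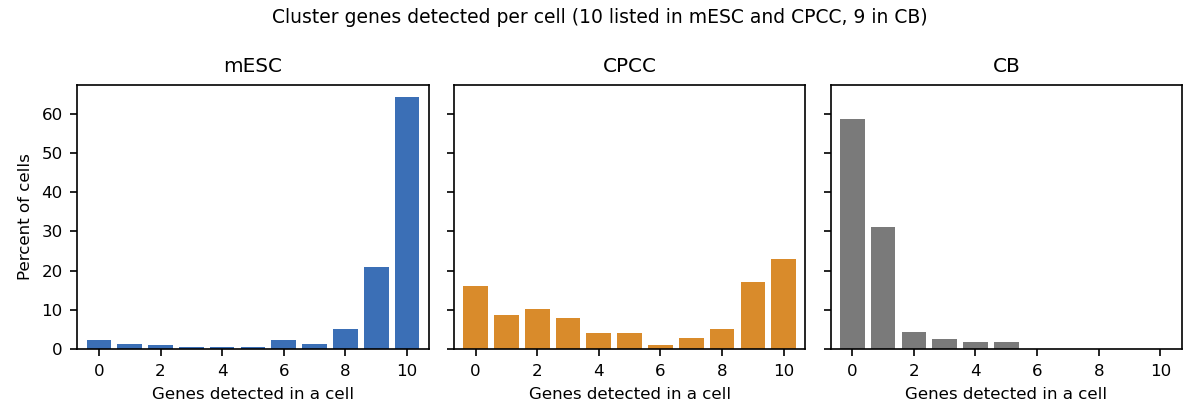
Percent of cells (vertical axis) by the number of cluster genes detected in a cell at 1 or more counts (horizontal axis), for mESC, CPCC and CB. The mESC bars stand at the right end, with 138 of 215 cells at 10 genes, the CB bars at the left end, with 136 of 232 cells at 0, and CPCC has cells at both ends.

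The summed CPM of the members per cell showed the same split. In CPCC its quartiles were 2.44, 73.2 and 931 CPM. It was under 1 CPM in 35 cells, from 1 to 100 CPM in 24 and 32 cells on either side of 10 CPM, from 100 to 1000 CPM in 49 and over 1000 CPM in 35. In mESC the quartiles were 621, 902 and 1265 CPM, and 204 of 215 cells were over 100 CPM. The cells of CPCC pool 1 had a median of 896 CPM, beside 810, 1069 and 873 CPM in the mESC pools, and those of pool 2 had a median of 14.2 CPM. When every cell was thinned to 430000 counts, which left 157 CPCC cells, 44.6% of them still held 8 or more genes.

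Over the 175 CPCC cells the levels of the genes went together, with Zfp993 standing apart. For the 36 pairs among the other 9 genes Spearman's rho of the CPM ran from 0.61 (Zfp982 and Zfp990) to 0.90 (Zfp980 and Zfp981), with a median of 0.81. For the 9 pairs with Zfp993 it ran from 0.27 to 0.34. Zfp980 and Zfp981 were each found in 93 cells, and 85 cells held both, which is 91.4% of the cells of either gene. Zfp982 and Zfp985 were found in 77 and 107 cells and together in 75, which is 97.4% and 70.1% of their cells. Within pools 1 and 2 the latter pair shared 84.3% and 43.2% of the Zfp985 cells, and of the cells of Zfp980 64 of 66 and 21 of 27 also held Zfp981. Of all 79 cells of pool 1, 66 held Zfp981 and 59 held Zfp982, beside 27 and 18 of the 96 cells of pool 2. Part of the overlap in pool 1 therefore follows from how common the genes were. Over all 45 pairs the median share of cells with either gene that held both was 0.724, and it was 0.887 in pool 1 and 0.419 in pool 2. These values describe cells that share a library preparation, a depth and a culture, and they carry no test.

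The relation was lower within each pool than over both. Within pool 1 (79 cells) the 36 pairs without Zfp993 had a median rho of 0.67 (0.46 to 0.79), and within pool 2 (96 cells) one of 0.56 (0.39 to 0.77). The pairs with Zfp993 had medians of 0.25 and 0.24. In mESC, where nearly every cell expressed the genes, rho over 203 cells of 100000 or more counts was lower, with a median of 0.31 for the 36 pairs and of 0.02 for the pairs with Zfp993. The highest mESC pairs were Zfp987 with Zfp988 (0.57) and Zfp600 with Zfp980 (0.54).

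Reads of similar genes can be counted for the wrong copy, so the sequence that the members share was measured as the share of read-length words (stretches as long as 1 sequenced read) in the transcripts of a gene that also occur in another gene. It was 66.1% for Zfp993, 61.9% for Zfp987, 61.7% for Zfp600, 37.3% for Zfp980, 35.1% for Zfp988 and 33.1% for Zfp989. Levels of these 6 genes are uncertain, by an amount that the shares do not measure. The share was 6.43% for Zfp981, 1.22% for Zfp990, 0.597% for Zfp982 and 0.169% for Zfp985. Only exact words of annotated transcripts were compared, so a low share does not show that a level is free of misassigned reads. The main partners were other genes of the region, such as Rex2 for Zfp600 and Zfp980, and Zfp991 for Zfp993. Zfp987 had 7 partners, of which Gm8935, a processed pseudogene on chromosome 3, shared most (44.3%), followed by Zfp534 (24.9%), Zfp988 (24.1%), Zfp989 (21.0%) and Zfp986 (20.3%) on chromosome 4. Among the 4 genes with under 10% shared sequence the 6 values of rho over CPCC cells ran from 0.61 to 0.81 with a median of 0.73, and within the pools their medians were 0.60 and 0.51. Their median log2 ratio of CB against mESC was -5.02.

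**Figure D3:**
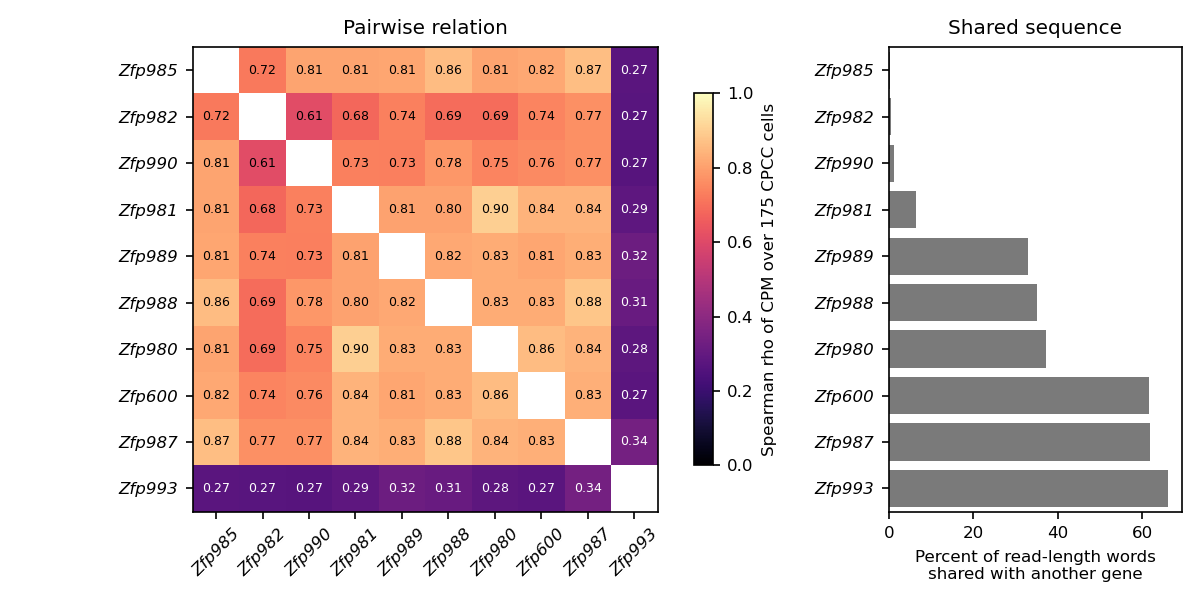
Left, Spearman rho of CPM over 175 CPCC cells for each pair of genes, as colour and number; right, percent of read-length words that a gene shares with any other gene, in the same order from least to most. The 4 genes at the top share under 10% and reach rho of 0.61 to 0.81 with each other, and the row of Zfp993 stays between 0.27 and 0.34.

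The CPCC cells that expressed the cluster were mostly those with markers of pluripotency. Over the 175 cells the summed CPM of the members had a rho of 0.84 with Pou5f1, 0.82 with Zfp42 and 0.82 with Dppa5a, all genes of the undifferentiated state, and of 0.80 with the sum of the 10 markers. Within pools 1 and 2 the rho with that sum was 0.56 and 0.64. Klf4, also a stem cell factor but one that CB expressed at 129 CPM, had a rho of -0.01, with -0.03 in pool 1 and -0.34 in pool 2. By gene, rho with the summed markers ran from 0.64 (Zfp982) to 0.82 (Zfp988) among 9 members and was 0.26 for Zfp993. The sums of the fibroblast and smooth muscle markers had a rho of -0.64 and -0.60, those of the cardiac progenitor and macrophage markers -0.52 and -0.44, and that of the cardiomyocyte markers -0.03. Within pools 1 and 2 the cardiac progenitor sum had -0.36 and -0.40, and the macrophage sum 0.04 and -0.14. In pool 1 the macrophage markers summed to only 0.0899 CPM and Csf1r alone varied, so the value of 0.04 rests on that gene near the floor.

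Read by cells, 97 CPCC cells held Pou5f1, and 75 of these held 8 or more members. Of the 78 cells without Pou5f1, 4 held 8 or more members and 23 held 3 or more. The median sum of the members was 854 CPM in the cells with Pou5f1 and 1.85 CPM in those without, at median depths of 1322462 and 1675315 counts. Within pool 1 these medians were 983 CPM (63 cells) and 2.32 CPM (16 cells), and within pool 2 they were 226 CPM (34 cells) and 1.36 CPM (62 cells). The Pou5f1 cells of pool 1 lay near the mESC cells with Pou5f1, which had a median of 936 CPM, and those of pool 2 lay lower, with quartiles of 41.3 and 752 CPM and a median depth of 771412 counts.

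The classes by number of members also differed in other genes. In the 79 CPCC cells with 8 or more members the median of Dppa5a was 4715 CPM and that of Utf1 521 CPM, and Esrrb was found in 82.3% of the cells. In the 61 cells with 2 or fewer, the median of Acta2, the smooth muscle actin, was 3682 CPM and that of Tagln 1472 CPM, beside 1.80 and 4.55 CPM in the cells with 8 or more. Col1a1, a collagen chain of fibroblasts, was found in 63.9% of the cells with 2 or fewer and in 10.1% of those with 8 or more. The macrophage gene C1qb was found in 60.7% and 8.86%, all of these cells being in pool 2, where its rho with the summed members was -0.28. These classes differ in pool, since 55 of the 61 cells with 2 or fewer members came from pool 2 and 63 of the 79 with 8 or more from pool 1, and the part of the pool in these contrasts was not tested. In the 35 cells with 3 to 7 members the medians of Pou5f1 and Zfp42 were 0 and that of Tagln was 769 CPM, whereas Acta2 had a median of 10.8 CPM and Dppa5a and Utf1 were each found in 77.1% of the cells.

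**Figure D4:**
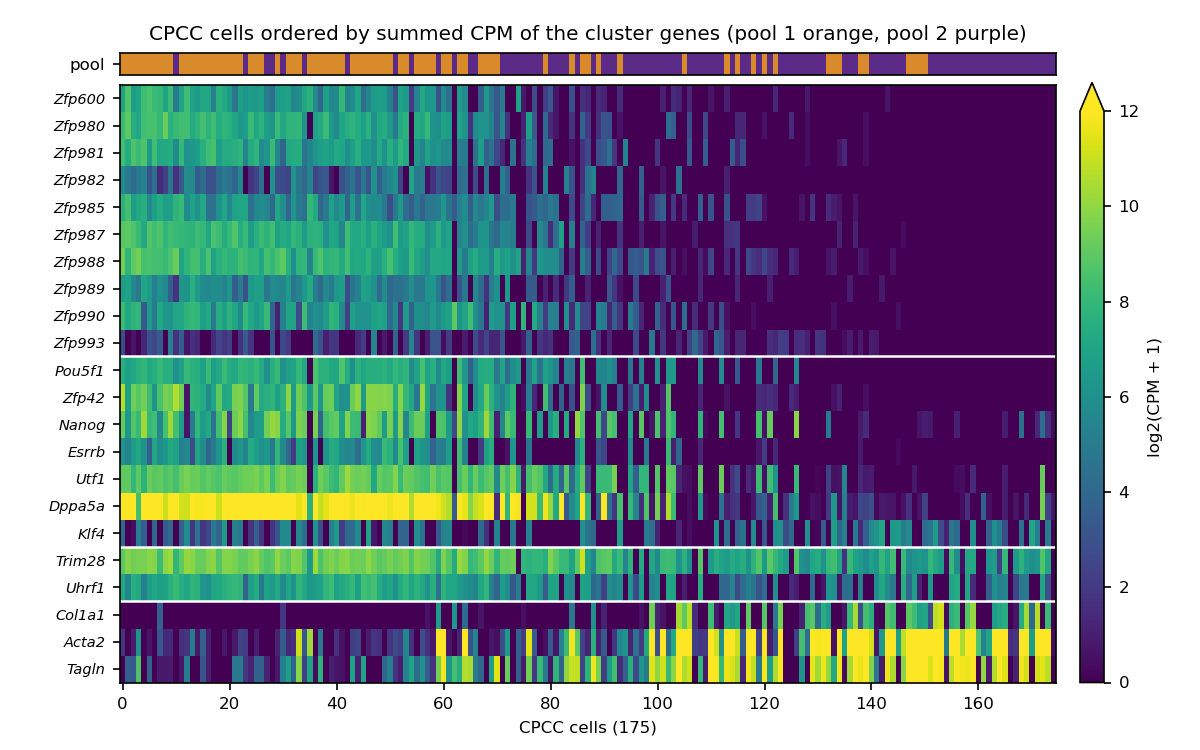
Each column is 1 of 175 CPCC cells, ordered from left to right by falling summed CPM of the 10 cluster genes; colour gives log2(CPM + 1), capped at the top of the scale, and the strip above gives the pool. Cells at the left, mostly of pool 1, hold the cluster genes together with Pou5f1, Zfp42 and Dppa5a, and cells at the right, mostly of pool 2, hold Acta2 and Tagln.

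**Figure D5:**
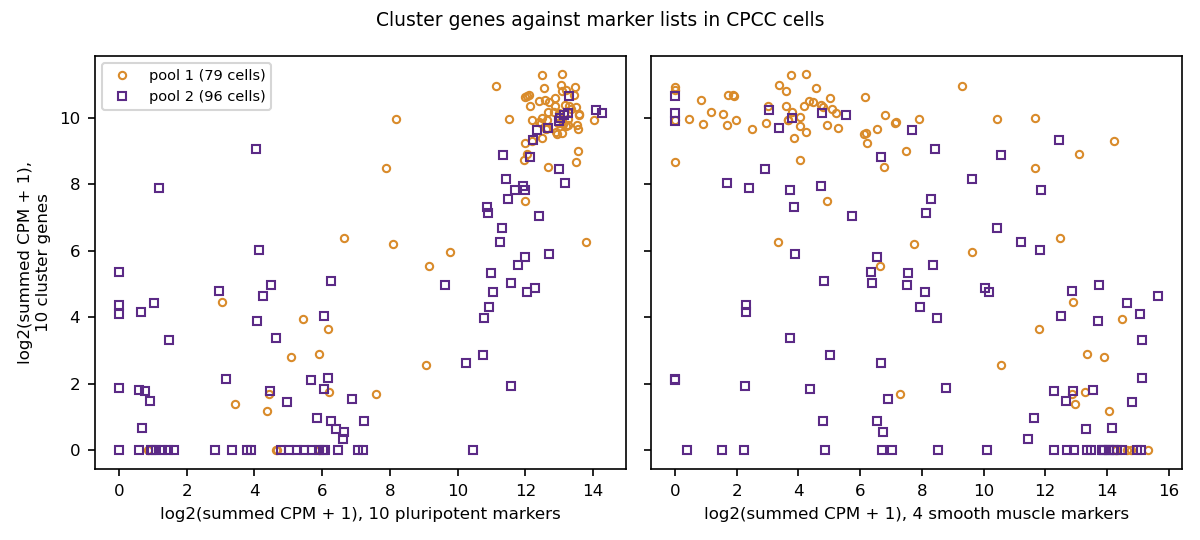
Summed level of the 10 cluster genes (vertical axis) against that of 10 pluripotent markers (left) and 4 smooth muscle markers (right), both as log2(summed CPM + 1), for the CPCC cells of pool 1 (circles) and pool 2 (squares). The cells form a high group in the upper right of the left plot, rho being 0.80 over all cells, and spread from the upper left to the lower right of the right plot, where rho is -0.60.

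The genes whose CPM most resembled the summed members over CPCC cells were looked up among 12060 other genes found in at least 25% of the cells, by the mean of the rho within each of the 2 pools. They were Gm8935 (0.84), Zfp534 (0.78), Gm21411 (0.75), Rex2 (0.74), Dppa2 (0.72), L1td1 (0.70), Gm9788 (0.70) and Morc1 (0.70), and the median over all genes was 0.05. Gm8935, Zfp534, Gm21411 and Rex2 share read-length words with members, so their counts are not independent of them. Among the 12046 genes that share none, a choice made after seeing the data, Dppa4 (0.67), Gdf3 (0.67), Platr14 (0.66) and Tet1 (0.66) followed Morc1. Dppa2 and Dppa4 encode chromatin proteins of the early embryo, L1td1 an RNA-binding protein derived from a retrotransposon, and Tet1 an enzyme that oxidises methylated cytosine. From mESC over CPCC to CB the level of Dppa2 was 86.7, 61.3 and 0.0325 CPM, and that of Tet1 was 249, 135 and 36.2 CPM. The lowest means belonged to Gsn (-0.64), Myl6 (-0.62) and Lgals1 (-0.61), which encode an actin-severing protein, a myosin light chain and a galectin.

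RNA of the genes whose proteins act with KRAB zinc finger proteins was found in all 3 cultures. Of the 20 co-repressor genes, 5 were more than 2-fold lower and 2 more than 2-fold higher in CB than in mESC, beside 11.3% and 24.9% of all genes, and the median log2 ratio was -0.54, beside -5.78 for the members. In the order mESC, CPCC and CB, Trim28 had 610, 382 and 185 CPM, Uhrf1, which guides DNA methylation to new strands, had 179, 80.0 and 41.5 CPM, and Setdb1 had 56.2, 46.6 and 45.3 CPM. Suv39h1, a histone methyltransferase, went the other way with 12.9, 61.7 and 58.6 CPM. For CPCC against mESC 2 were lower and 1 higher by this measure, beside 6.38% and 13.4% of all genes (median -0.43), and for CB against CPCC 1 was lower and none higher, beside 7.54% and 17.0% (median -0.06). Over CPCC cells the rho with the summed members was 0.75 for Trim28, 0.63 for Uhrf1, 0.31 for Setdb1, -0.06 for Hdac2 and -0.09 for Suv39h1. Within pools 1 and 2 it was 0.60 and 0.50 for Trim28, 0.50 and 0.34 for Uhrf1, 0.26 and 0.17 for Setdb1, -0.13 and -0.10 for Hdac2, and -0.36 and -0.06 for Suv39h1.

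Of 12 KRAB zinc finger genes elsewhere in the genome, 4 were more than 2-fold lower and 3 more than 2-fold higher in CB than in mESC, beside 11.3% and 24.9% of all genes, with a median of -0.44. Zfp819 had 37.9, 10.5 and 0.127 CPM in the order mESC, CPCC, CB, and Zfp57, which protects imprinted genes, had 119, 62.6 and 16.1 CPM. Zfp809, known for silencing retroviruses, had 36.6, 25.7 and 19.3 CPM, and Zfp445, which also acts on imprinted genes, had 37.9, 51.0 and 105 CPM. Of 8 genes that mark a state like the embryo at 2 cells, only Tcstv1 (0.0399 CPM) and Tcstv3 (0.609 CPM) were listed, both in CPCC.

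Between the outermost members RefSeq lists 59 other genes, of which 22 were listed in both mESC and CB. Their median log2 ratio of CB against mESC was -0.75, beside 0.13 over all genes, and 7 of the 22 were more than 2-fold lower, beside 11.3%. The 5 that RefSeq gives as protein coding kept different shares of their mESC level. In the same order of cultures Rex2 had 149, 72.5 and 1.51 CPM, and Zfp978 had 24.6, 16.2 and 0.232 CPM. Zfp992 had 158, 54.2 and 25.5 CPM, Gm13212 37.2, 13.8 and 7.27 CPM, and Zfp991 30.4, 18.3 and 14.8 CPM. Gm21411 had 46.2 and 28.7 CPM in mESC and CPCC and was not listed in CB. Gm13135, Gm13237 and Gm13034 had 35.9, 31.2 and 21.0 CPM in CB, beside 48.5, 60.0 and 49.6 CPM in mESC, though Gm13237 went from 5.93 CPM in CB pool 3 to 62.0 CPM in CB pool 2. Levels in CB as low as those of most members were therefore not shared by all genes of the interval.

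The 5 genes outside the members that share the promoter word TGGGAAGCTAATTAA were all more than 2-fold lower in CB than in mESC, beside 11.3% of all genes. The log2 ratios were -6.84 (Zfp534), -5.90 (Rex2), -5.10 (Zfp979), -3.25 (Zfp984) and -2.21 (Gm13212). In this order the levels of the 5 genes in mESC were 141, 149, 258, 135 and 37.2 CPM, and in CB 0.235, 1.51, 6.54, 13.4 and 7.27 CPM. Zfp979, Zfp534 and Zfp984 lie beyond the last member on the minus strand. Rex2, Zfp534, Zfp979 and Gm13212 also share read-length words with members, and the word was chosen after the sequences were seen, so this is a description of 5 genes. Zfp990, a member with no promoter in the table, had a log2 ratio of -4.58.

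Zfp993 differed from the other members in several readouts. It was the lowest of the 10 in mESC and CPCC, its level was alike in the CPCC pools, and it was found in more CB cells than any other member, 62 of 232 (26.7%). None of its values above 0 was a whole number, in 205 mESC and 182 CB cells, and 120 of those 182 values were under 1 count. Among the other members from 38.5% (Zfp982) to 99.5% (Zfp600) of the mESC values above 0 were not whole. Over all genes the median share was 4.35% in mESC and 9.73% in CB. Over 219 CB cells of 100000 or more counts its CPM had a rho of 0.58 with Zfp992, 0.51 with Zfp991 and 0.51 with the pseudogene Znf41-ps, which share 21.6%, 62.6% and 50.6% of its read-length words, and of 0.02 with Zfp990. In mESC these values were 0.29, 0.11 and 0.02 for the 3 partners. How many of its counts belong to the partners was not tested.

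A few CB cells held members at a higher level. The sum was over 100 CPM in 10 of 232 cells, up to 339 CPM, and Zfp990 was the leading member in 6 of these 10 and Zfp993 in 2. In 5 of the 10 a single member supplied every count, which was Zfp990 in 4 cells and Zfp993 in 1. The cell with the highest sum, in pool 3, held 5 members and 369 CPM of pluripotent markers, and the other 9 held from 0 to 156 CPM of these markers. The same sum was 183, 105 and 235 CPM in the whole CB pools, and over all CB cells Klf4 had 129 CPM, beside 0.458 CPM for Nanog and 2.23 CPM for Zfp42.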

How the data were processed

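Single-cell RNA sequencing tables of mESC, CPCC and CB, 1 labelled sample each, were analysed. Per the methods and the submitters' processing notes, the authors aligned paired reads with STAR 2.7 to mm10 (GRCm38) and made the gene count tables in Partek Flow, but the counting settings, strand and the assignment of reads of similar genes are not given in the sources used here. As deposited, the CPCC table holds counts in whole numbers. The deposited mESC and CB tables hold estimated counts, with fractions in 32.0% and 34.6% of the non-zero values. Each table lists only genes whose highest value is 1 or more. In CPCC 208 rows without a gene name and 23 with a date in its place, 0.139% of the counts, were left out, as were 2 columns that no label matched. Allele-specific counts were not used here.

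Counts were summed over cells and scaled to CPM, with exact 95% Poisson and Clopper-Pearson intervals, and ratios were formed with 1 CPM added. Detection in a cell required 1 count. With 1 sample a group no test was made. The genes named are the members, the fixed lists, the 8 most and 3 least alike genes over CPCC cells and the 8 interval genes with the highest CPM, plus the genes that share a promoter word or sequence with members and Zfp978, chosen after their values were seen. The members and lists were chosen with earlier results of these data known. Alternatives were other pseudocounts, thinning to 430000 counts per cell, cells of 100000 or more counts, pools left out, and scaling by edgeR 4.0.16 (TMM) or DESeq2 1.42.0 (size factors) on rounded sums of the genes listed in all 3 tables. The calculations were tested on simulated data. Positions are from GENCODE on GRCm38 and promoters from RefSeq on GRCm38.p6. Python 3.11.15, pandas 2.3.3, numpy 2.4.6, scipy 1.17.1, matplotlib 3.10.9 and R 4.3.3 were used.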

Additional observations from a re-analysis of the deposited data

How the results depend on the processing

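Of the main summaries, 141 of 160 values under the alternatives stayed within set limits, which were a factor of 1.5 for ratios and levels, 0.1 for rho and the 95% interval for shares of cells. Of the values of single genes, 443 stayed within them and 115 did not, 70 of these being log2 ratios. The ratio changed its sign for Zfp981 (0.03), Zfp987 (0.01) and Zfp989 (0.32) in CPCC against mESC without CPCC pool 2. In CB against CPCC it did so for Zfp993 (-0.06 to 0.18 over pools left out) and for the medians of the co-repressors (-0.62 to 0.34) and of the interval genes (-0.63 to 0.10). With 0.1 and 10 CPM added instead of 1, the median log2 ratio of the members was -6.68 and -3.38 for CB against mESC and -5.76 and -2.36 for CB against CPCC. Over the 4 members with under 10% shared sequence, an alternative chosen after seeing the data, these medians were -5.02 and -3.46. Leaving out 1 pool gave -3.05 (without CPCC pool 1) to -0.12 (without CPCC pool 2) for CPCC against mESC and -5.80 (without CPCC pool 2) to -2.02 (without CPCC pool 1) for CB against CPCC. The median level in CB was 0.482 CPM without the cell with most counts of each gene, and the median share of mESC cells was 97.2% after thinning. At 5 or more counts the median CPCC cell held 3 members. Within CPCC pools 1 and 2 the median rho of all pairs was 0.65 and 0.54, the median overlap of cells (Jaccard index) 0.887 and 0.419 (0.724 over both), and the rho with the pluripotent markers 0.56 and 0.64. The causes of these shifts were not tested. With TMM or DESeq2 scaling the same numbers of members, 6, 9 and 8, were more than 2-fold lower, and with 10 CPM added they were 2, 8 and 7.

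No paired analysis was possible because each group is 1 sample, the columns carry no replicate numbers that groups share and no test was made. The unknown assignment of reads between similar genes limits the levels of the members, most plainly of the 6 that share much sequence. The whole counts of CPCC and the estimated counts of mESC and CB limit comparisons of low values. Pools carry no label of clone or batch, so clone, chip and culture cannot be told apart.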
